A study of Mus musculus with 5 samples.

Results

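Genes of phagocytes and of leukocyte signalling were described in the livers of adult C57Bl/6 mice given an antibody against CSF1R or a control antibody. The set holds 43 genes, chosen as macrophage effector genes and as signalling genes that blood-derived cells share. Of these, 41 were measured among 18820 genes with a named probe set, each member by exactly 1 probe set; the kinases Lyn and Lck are not listed in the probe annotation and were not analysed here. Mice of the control group received rat IgG and mice of the treated group received M279, an antibody against the receptor CSF1R. In both groups each injection held 300 µg and was given into the peritoneal cavity 3 times a week for 6 weeks, after which the liver was taken. There were 3 control arrays and 2 treated arrays, 1 liver sample each, and the labels give no genotype beyond the strain and do not say whether the samples came from separate animals, so every p-value reflects the spread among these 5 samples, which may be technical. Median intensity over all probe sets lay between 32.5 and 33.9, and the 8 measured hepatocyte markers averaged 12.49 to 12.61 on the log2 scale on every array, so the labelled tissue had its defining markers. Csf1r, which encodes the receptor the antibody binds, read 8.49, 8.68 and 8.61 in controls 1 to 3 and 7.93 and 8.12 in treated 1 and 2.

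Macrophages take up particles through surface receptors, and many of these receptors signal through adaptors that carry a short tyrosine motif, the ITAM. Src family kinases phosphorylate the ITAM, SYK docks on it, and SYK then acts through LCP2, VAV1, BTK, phospholipase C gamma and PI3-kinase on actin, calcium and the phagocyte oxidase. Phosphatases such as SHP-1 and SHIP-1 restrain the same route. In liver most macrophages are Kupffer cells of the sinusoids, which depend on CSF1R, while T cells, NK cells, B cells and blood leukocytes share much of the signalling machinery. PU.1, encoded by Spi1, is the transcription factor that drives many of these genes in myeloid cells.

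PU.1 binds a purine-rich core, so the promoter windows of the members were searched for GAGGAA and, for the other strand, its reverse complement TTCCTC; matches on opposite strands cannot overlap. The windows run from 250 bases before to 50 bases after each RefSeq transcription start in build GRCm38.p6, and 30 of the 41 measured members had one or more. At least 1 match lay in the windows of 18 of these 30 members (60%), against 31.3% of 27025 genes with a window. Of the 10 members with a window whose treated arrays both lay under every control, 7 had a match, and of the other 20 members 11 had one. The longer GAGGAAGT, which contains the shorter motif, and its reverse complement ACTTCCTC were found for 4 of 30 members (Inpp5d, Cd53, Pik3cg and Vav1), or 13.3%, against 3.69% of all genes. A match describes letters in a window and is not a binding site. Shown are the 250 bases before the start for the genes whose treated arrays both lay under the controls, first the 4 of smallest p with a match before the start and then the gene of smallest p with none. Ptprc has a pair of windows, and the one with the match is given. The windows are read 5′ to 3′ on the gene's strand with the motif in capitals, from chr1:138175306-138175555 (minus strand) for Ptprc, chr17:57278850-57279099 (plus strand) for Vav1, chr13:52596632-52596881 (plus strand) for Syk, chr11:34783906-34784155 (minus strand) for Dock2 and chr19:12460520-12460769 (plus strand) for Mpeg1.
Ptprc: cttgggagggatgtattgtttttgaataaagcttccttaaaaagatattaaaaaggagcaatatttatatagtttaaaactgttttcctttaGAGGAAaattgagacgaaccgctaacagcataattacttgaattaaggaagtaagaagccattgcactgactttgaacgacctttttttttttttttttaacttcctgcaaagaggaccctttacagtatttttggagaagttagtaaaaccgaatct
Vav1: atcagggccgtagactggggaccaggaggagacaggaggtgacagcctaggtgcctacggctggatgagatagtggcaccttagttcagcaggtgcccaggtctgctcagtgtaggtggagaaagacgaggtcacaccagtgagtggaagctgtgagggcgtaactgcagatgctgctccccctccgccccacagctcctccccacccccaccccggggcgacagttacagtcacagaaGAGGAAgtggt
Syk: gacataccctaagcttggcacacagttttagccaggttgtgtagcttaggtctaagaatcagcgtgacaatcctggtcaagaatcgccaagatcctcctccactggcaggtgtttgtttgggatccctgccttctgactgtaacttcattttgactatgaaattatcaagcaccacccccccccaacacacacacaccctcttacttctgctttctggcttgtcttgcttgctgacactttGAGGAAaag
Dock2: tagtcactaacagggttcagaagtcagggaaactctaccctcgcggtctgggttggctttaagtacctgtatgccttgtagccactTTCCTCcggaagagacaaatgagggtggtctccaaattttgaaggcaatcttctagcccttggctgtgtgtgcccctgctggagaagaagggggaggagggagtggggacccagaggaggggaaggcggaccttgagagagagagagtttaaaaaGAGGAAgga
Mpeg1: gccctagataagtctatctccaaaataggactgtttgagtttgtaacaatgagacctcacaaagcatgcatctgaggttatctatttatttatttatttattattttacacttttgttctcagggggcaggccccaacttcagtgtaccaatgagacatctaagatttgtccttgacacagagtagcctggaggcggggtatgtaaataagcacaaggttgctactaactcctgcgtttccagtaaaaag
Vav1, Syk and Dock2 each carry the core just before the start, and Mpeg1 has no match in these 250 bases.

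The question put to the members was whether the antibody altered their expression in liver. Differences are given on the log2 intensity scale as treated minus control, with the standard error (SE) from limma. None of the 41 members passed an adjusted p of 0.05 in limma, which called 0 of 35556 probe sets (0% lower and 0% higher), and the smallest adjusted p among the members was 0.193. Of the members, 34 had a difference below 0, where 43.7% of all genes did, and the median difference was -0.21 against 0.04 over all genes. At an unadjusted p under 0.05 in limma, 9 members were lower and 0 higher, against 8.4% of genes lower and 9.91% higher. Both treated arrays lay under every control for 13 members (31.7%), against 19.5% of genes, and above every control for 1 member, against 25.1%. Because the array measures whole liver, fewer cells of a type and less RNA per cell cannot be told apart.

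The level of a gene moved with its difference over the whole array. With all genes ranked by mean intensity and placed in 20 bins of 941 genes each, a description added after the values were seen, the median difference ran from 0.20 in dim bins to -0.17 at middle levels and 0.01 in the brightest bin. The members sit mainly at middle levels. In the bins that held them, 30.5% of genes on average had both treated arrays under every control, close to the 31.7% of the members. For each group of genes, the share of genes at its levels is this average over the bins that hold the group. For both treated arrays above every control, this share ran from 4.57% to 21.7% over the role groups of the members. Against the median of its own bin, 28 of 41 members were lower, and the median gap over all 41 was -0.11. Cd14 and Btk lay farthest below their bins, at -0.76 and -0.72, and Arhgdib lay farthest above, at 0.30.

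**Figure D1:**
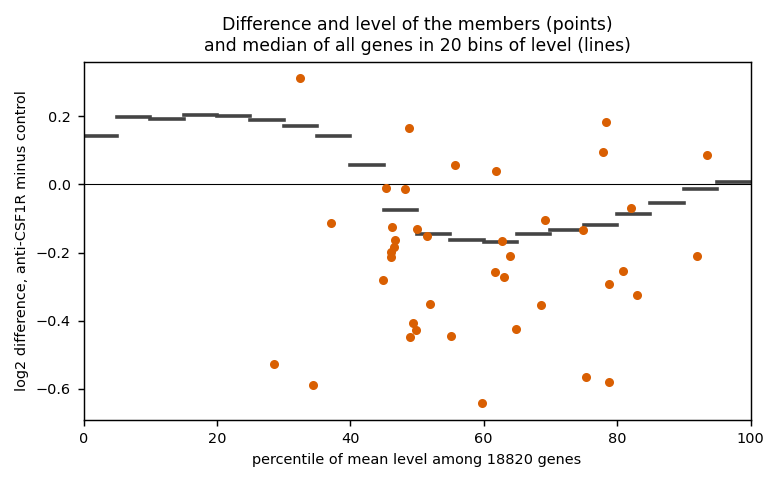
The log2 difference of each of 41 members (points, treated minus control) is plotted against its percentile of mean level among 18820 genes, with the median of all genes in each of 20 bins of level as lines. The lines pass from above 0 at low level to -0.17 at middle level, and 28 of 41 points lie below the line of their bin.

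The treated arrays did not read the members alike. Treated 1 lay under every control for 32 of 41 members (78%), against 29.5% of genes, or 46.5% of genes in the members' level bins, and above every control for 1 member, against 36.2% of genes. Treated 2 lay under every control for 15 members (36.6%), against 31.2% of genes, or 43.2% in those bins, and above every control for 9 members, against 40.5% of genes. The median member stood -0.38 from the control mean on treated 1 and -0.03 on treated 2. Controls were uneven too: control 2 was the highest control for 33 of 41 members, where it was so for 35.9% of genes, with a median of 0.16 above the control mean. Without treated 1 the members' median difference was -0.03, and without treated 2 it was -0.38, with 32 members under every control. Without control 2 the median was -0.15, with 13 members under every control, against 23.8% of genes.

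**Figure D2:**
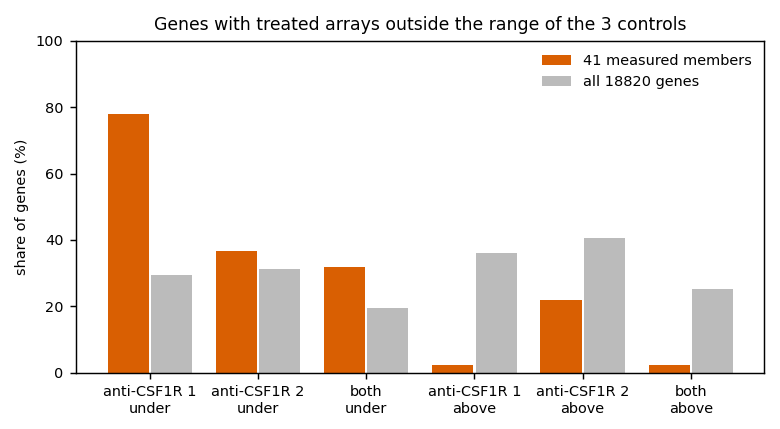
Bars give the share of genes, in percent, whose treated arrays lie under or above all 3 controls, for the 41 members and for all 18820 genes. For treated 1 the share under the controls is 78% of members against 29.5% of genes, and for treated 2 it is 36.6% against 31.2%.

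Among the phagocyte effectors, 5 of 6 had differences below 0, with a median of -0.23. Set against the medians of their own level bins, 3 of 6 were lower, with a median gap of -0.09. Mpeg1, which encodes the pore-forming protein perforin-2, read 8.08, 8.21 and 7.74 in controls 1 to 3 and 7.45 and 7.44 in treated 1 and 2. Both treated arrays lay under all controls and close to each other, and the difference was -0.57 ± 0.16 (SE, 3 control and 2 treated arrays; adjusted p = 0.207 in limma), or 1.48-fold lower. Laptm5, a lysosomal membrane protein of blood-derived cells, read 8.56, 8.81 and 8.32 in controls and 8.09 and 8.39 in treated, so that treated 1 lay under every control and treated 2 did not (-0.32 ± 0.18). The remaining effectors overlapped between groups. Cd68, a glycoprotein of macrophage lysosomes, differed by -0.29 ± 0.18, and its 2 treated values were 7.60 and 8.14 against controls of 8.05 to 8.25. Lgals3, the lectin galectin-3, differed by -0.17 ± 0.29 and Aif1, the actin-bundling protein IBA1, by -0.13 ± 0.21. Lyz2, the lysozyme of macrophages and neutrophils, differed by 0.09 ± 0.14, with treated 1 under and treated 2 above every control. Lyz2 has a near-identical neighbour, Lyz1, and whether the probe set separates them was not tested. The 1 of 6 effectors apart, Mpeg1, compares with 35% of genes under every control at their levels.

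The phagocyte oxidase transfers electrons from NADPH to oxygen and is assembled from a membrane pair, CYBB and CYBA, and cytosolic subunits that include NCF1 and NCF4. Cybb, the catalytic subunit, read 8.02, 8.58 and 8.23 in controls and 7.55 and 7.85 in treated. Both treated arrays lay under every control, with a difference of -0.58 ± 0.19 (adjusted p = 0.229 in limma). Ncf1, the organiser of the complex, read 5.69, 5.94 and 5.58 in controls and 5.18 and 5.44 in treated, again without overlap (-0.43 ± 0.15). Ncf4 also lay apart, by a smaller difference of -0.21 ± 0.12. Cyba, the partner that stabilises CYBB, overlapped: treated 1 read 7.67 and treated 2 read 8.40, against controls of 7.72 to 8.29 (0.09 ± 0.27). The oxidase genes had 3 of 4 members under every control, where 31.9% of genes at their levels were. Of 4 measured partners of the oxidase, 1 lay under and 1 above every control, namely Cybc1, a chaperone of the CYBB and CYBA pair (-0.23 ± 0.13), and the small GTPase Rap1a (0.13 ± 0.11), with a median of -0.02. At their levels 27.2% of genes lay under and 12.3% above.

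The receptors and their adaptor had 5 of 5 differences below 0, although that of Tyrobp turned to 0.01 with cyclic loess. Genes at such levels were mostly lower too: set against the medians of their own level bins, 4 of 5 were lower, with a median gap of only -0.0071. Cd14, the lipopolysaccharide co-receptor, read 4.57, 4.94 and 4.12 in controls and 3.71 and 4.20 in treated. Treated 1 was the lowest array, while treated 2 lay above control 3, and the difference was -0.59 ± 0.27 (adjusted p = 0.299 in limma). Mertk, a receptor tyrosine kinase for the uptake of dying cells, read 8.25, 8.52 and 8.21 in controls and 8.10 and 8.05 in treated, with no overlap and a difference of -0.25 ± 0.13. Sirpa, the inhibitory receptor for CD47, also lay apart by a small amount, with treated values of 7.66 and 7.67 against a lowest control of 7.69 (-0.13 ± 0.11). Tyrobp, the ITAM adaptor DAP12, had the widest gap between the treated arrays of all members, 7.81 against 8.77, around controls of 8.20, 8.62 and 8.26. Trem2, the lipid-sensing receptor that signals through DAP12, read 5.40 and 5.91 in treated against controls of 5.60 to 6.11 (-0.15 ± 0.22). Tyrobp and Trem2 thus overlapped with the controls. Of these 5 members 2 lay under every control, against 28.4% of genes at their levels.

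Partners of these receptors were taken from lists drawn up for the pathway. Among 8 partners of CD14 and TLR4, 3 lay under and 1 above every control, against 25.3% and 15.4% of genes at their levels, with a median of -0.22. The 3 of smallest p were Cd180, a relative of TLR4 (-0.61 ± 0.19), Tlr2 (-0.45 ± 0.17) and Tlr4 (-0.37 ± 0.16). This list was mixed in direction, with 5 differences below 0 and 3 above, the highest at 0.53. Among 9 partners of MERTK and SIRPA, 5 lay under and 0 above, against 32.4% and 8.38% of genes at their levels, with a median of -0.21. They were led by the engulfment adaptor Elmo1 (-0.52 ± 0.14), the adhesive glycoprotein Thbs1 (-0.58 ± 0.23) and the bridging ligand Pros1 (-0.44 ± 0.20). Among 15 ITAM and ITIM receptors of myeloid cells, 4 lay under and 1 above, against 19.4% and 26.7% of genes at their levels, with a median of -0.07. The sialic acid receptors Cd33 (-0.54 ± 0.13) and Siglece (-0.51 ± 0.22) and the beta-glucan receptor Clec7a (-0.32 ± 0.15) had the smallest p. Differences in this list were below 0 for 9 of 15 receptors and above 0 for 6, up to 0.25. None of the genes in these lists passed an adjusted p of 0.05 in limma.

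Spi1 read 6.77, 7.18 and 6.79 in controls 1 to 3 and 6.19 and 7.09 in treated 1 and 2. Treated 1 was the lowest array and treated 2 lay within the control range, so the groups overlapped and the difference of -0.27 ± 0.28 was smaller than its SE (adjusted p = 0.591 in limma). Of 10 other myeloid transcription factors, 3 lay under and 1 above every control, against 30.9% and 11.6% of genes at their levels, with a median of -0.15. Elf4 (-0.45 ± 0.17) and Fli1 (-0.29 ± 0.11), both of the ETS family to which PU.1 belongs, had the smallest p.

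Surface proteins shared by leukocytes gave the largest single difference. Ptprc, the phosphatase CD45 that is carried by nearly all leukocytes, read 6.72, 7.02 and 6.55 in controls and 6.16 and 6.09 in treated. Both treated arrays were lower than every control and near each other, with a difference of -0.64 ± 0.16 (1.56-fold lower, adjusted p = 0.193 in limma). Itgb2, the shared beta chain of the leukocyte integrins, read 6.12, 6.39 and 6.32 in controls and 5.98 and 5.68 in treated, also without overlap (-0.45 ± 0.15). The small surface proteins were split between the treated arrays. Cd53, a tetraspanin, read 6.70 and 7.36 in treated against controls of 7.25 to 7.65 (-0.36 ± 0.23), and Cd48, a ligand of CD2 family receptors, read 4.65 and 5.22 against 5.08 to 5.29 (-0.28 ± 0.19). Cd52, a short glycopeptide of lymphocytes and monocytes, read 6.33 and 7.14 against 6.50 to 6.89 (0.04 ± 0.26). Of these 5 members 2 lay under every control, against 35.3% of genes at their levels. Of 8 partners of ITGB2, 2 lay under and 1 above every control, against 24.2% and 19.1% of genes at their levels, with a median of -0.10. Itgal, the alpha chain of LFA-1, differed by -0.58 ± 0.18, Icam1, its ligand, by -0.46 ± 0.18, and Itgad, another alpha chain, by 0.33 ± 0.12.

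**Figure D3:**
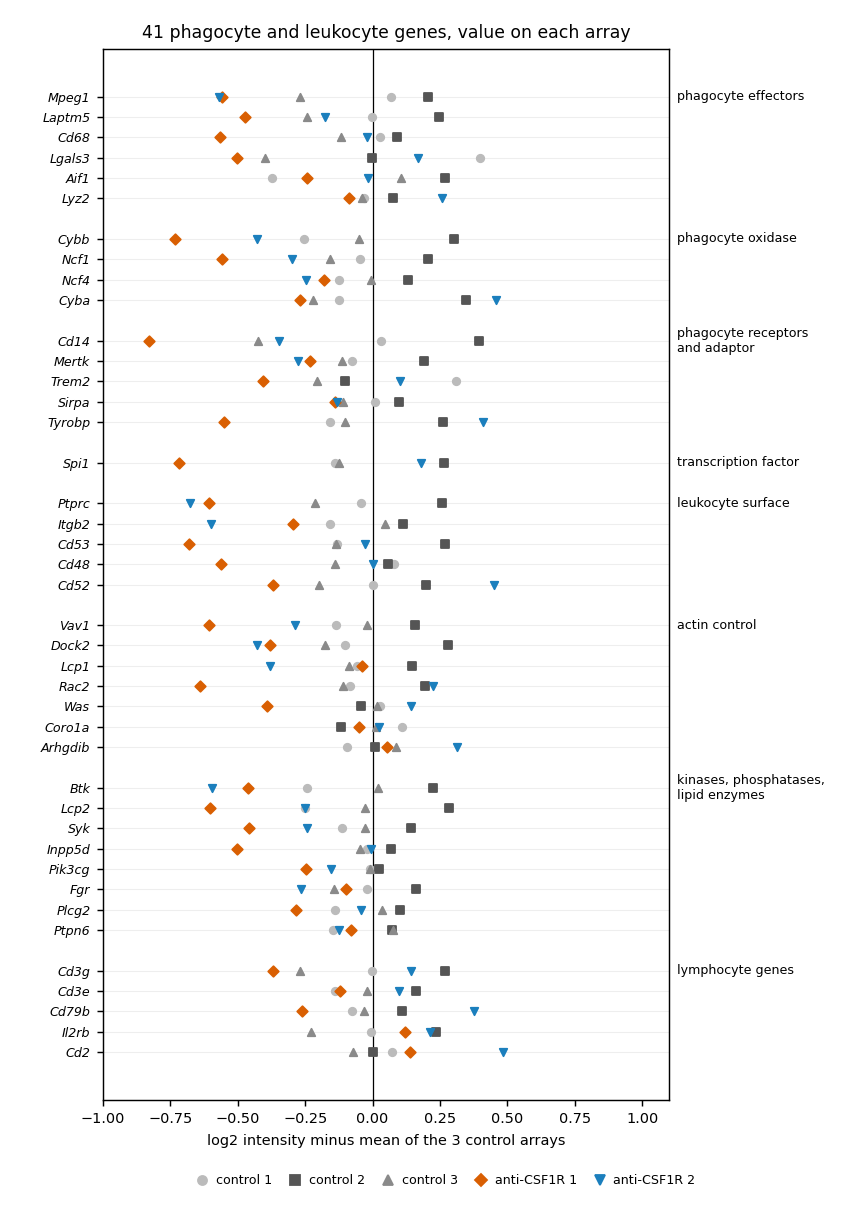
Each row is 1 member and each point is 1 array, drawn as log2 intensity minus the mean of the 3 controls and grouped by role. Treated 1 (orange diamonds) lies left of all controls in 32 of 41 rows and treated 2 (blue triangles) in 15, while control 2 (dark squares) is the highest control in 33.

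Genes of actin control had 6 of 7 differences below 0, with a median of -0.21, although that of Coro1a turned positive with quantile normalization (0.08), median centring (0.02) and cyclic loess (0.03). Set against the medians of their own level bins, 5 of 7 were lower, with a median gap of -0.05. Vav1, a guanine nucleotide exchange factor of blood cells, read 5.52, 5.81 and 5.64 in controls and 5.05 and 5.37 in treated, with no overlap (-0.45 ± 0.15, adjusted p = 0.229 in limma). Dock2, an activator of RAC in leukocytes, read 5.58, 5.97 and 5.51 in controls and 5.31 and 5.26 in treated, also with no overlap (-0.41 ± 0.16). These 2 of 7 members lay apart, against 29.3% of genes under every control at their levels. Lcp1, an actin-bundling protein, differed by -0.21 ± 0.15, with treated 2 alone under the controls. Rac2, the RAC of blood cells and an oxidase subunit, read 6.31 and 7.18 in treated against 6.85 to 7.15 (-0.21 ± 0.26). Was, the actin nucleation factor WASP, differed by -0.13 ± 0.17 and Coro1a, coronin 1A, by -0.01 ± 0.12. Arhgdib was the only member of the group with a difference above 0 (0.18 ± 0.13). Of 16 partners in this list, 4 lay under and 0 above every control, against 26.9% and 13.2% of genes at their levels, with a median of -0.13, led by the WAVE complex subunit Nckap1l (-0.54 ± 0.14) and the exchange factor Dock10 (-0.45 ± 0.16).

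All 8 measured kinases, phosphatases and lipid enzymes had differences below 0, with a median of -0.23, although that of Ptpn6 turned to 0.02 with quantile normalization and 0.03 with cyclic loess. Set against the medians of their own level bins, 7 of 8 were lower, with a median gap of -0.12. Btk, a Tec family kinase of B cells and myeloid cells, read 3.96, 4.43 and 4.22 in controls and 3.74 and 3.61 in treated. Both treated arrays lay under every control (-0.53 ± 0.16, 1.44-fold lower, adjusted p = 0.215 in limma). Syk, the kinase that docks on ITAMs, read 5.81, 6.07 and 5.90 in controls and 5.47 and 5.69 in treated, also without overlap (-0.35 ± 0.13). Pik3cg, the PI3-kinase subunit used by G protein-coupled receptors, lay apart as well, from controls of 5.27 to 5.31 to 5.04 and 5.13 in treated (-0.20 ± 0.10). Lcp2, the adaptor SLP-76, differed by -0.43 ± 0.19, with treated 2 just above the lowest control (6.87 for both at this rounding). Inpp5d, the lipid phosphatase SHIP-1, read 6.30 and 6.79 in treated against 6.75 to 6.87 (-0.26 ± 0.17). The Src family kinase Fgr (-0.18 ± 0.13), the phospholipase Plcg2 (-0.16 ± 0.13) and Ptpn6, the phosphatase SHP-1 (-0.10 ± 0.12), had the smallest differences. In all, 3 of these 8 members lay under every control, against 30.8% of genes at their levels. Of 18 partners, 8 lay under and 2 above every control, against 28.6% and 13.3% of genes at their levels, with a median of -0.14. The 3 of smallest p were the adaptor Sh3bp2 (-0.43 ± 0.17), the lipid phosphatase Inppl1 (-0.24 ± 0.11) and the adaptor Lat2 (-0.33 ± 0.15).

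The lymphocyte genes had a median difference of 0.06, where that of each other role group was below 0, and 1 of 5 measured members lay above every control and 0 under, against 21.7% and 19.4% of genes at their levels. Their median was -0.12 on treated 1 and 0.21 on treated 2, so its sign differed between the treated arrays. The level bins of the lymphocyte genes had medians that averaged -0.0001, against -0.169 to -0.0559 for the other role groups. Cd2, an adhesion receptor of T and NK cells, read 4.149, 4.077 and 4.003 in controls and 4.216 and 4.562 in treated (0.31 ± 0.14, adjusted p = 0.293 in limma). It was the single member above the controls on both treated arrays, at a level where the median gene of its bin was at 0.17. Il2rb, a receptor chain for IL-2 and IL-15, read 5.39, 5.63 and 5.17 in controls and 5.52 and 5.61 in treated, within the control range (0.17 ± 0.16). The B cell receptor chain Cd79b read 5.86 and 6.50 in treated around controls of 6.05 to 6.23 (0.06 ± 0.20). The T cell receptor chains Cd3e (-0.01 ± 0.14, and 0.04 with quantile normalization) and Cd3g (-0.11 ± 0.22) overlapped with the controls. Of 9 partners of the T cell receptor, 0 lay under and 3 above every control, against 5.96% and 40.2% of genes at their dim levels, with a median of 0.08. The 3 of smallest p were the adaptor Sh2d1a (0.50 ± 0.12), Cd3d (0.28 ± 0.13) and the kinase Zap70 (0.16 ± 0.12), the last of which overlapped between groups. The difference between lymphocyte and phagocyte members was not tested.

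**Figure D4:**
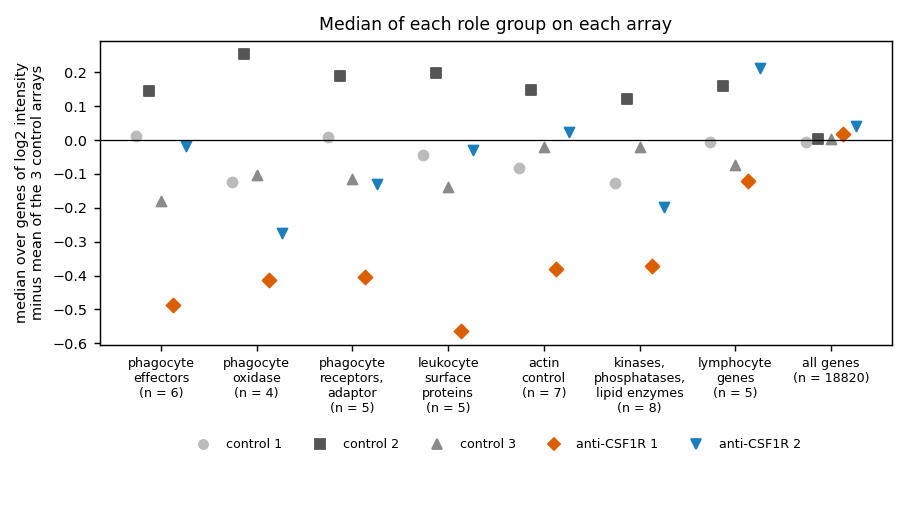
Points give the median over the genes of each role group, as log2 intensity minus the mean of the 3 controls, on each of the 5 arrays, with all 18820 genes at the right. Treated 1 is the lowest array in all 7 groups with more than 1 gene, down to -0.56 for the leukocyte surface proteins, while treated 2 ranges from -0.27 for the oxidase to 0.21 for the lymphocyte genes.

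Members that span little of the chromosome mostly read higher on treated 2 than on treated 1. The span of each gene, from its first to its last base in RefSeq build GRCm38.p6, was set beside the values after they had been seen. Among all 41 members 31 (75.6%) were higher on treated 2 than on treated 1, against 46.3% of all genes. Of the 20 members shorter than the median span of 18.4 kb, 18 were higher on treated 2 than on treated 1, with a median gap of 0.50. The share among all genes of short span was not counted. Of the 21 at or above it, 13 were, with a median gap of 0.09. Across the 41 members Spearman's correlation between span and that gap was -0.48 and Pearson's r with log10 span was -0.48. Over 17895 genes with a span Spearman's correlation was -0.22 and Pearson's r -0.20. Measured against the control mean, Spearman's correlation across the members was -0.53 for treated 2 and -0.05 for treated 1. The points share the same 5 arrays, span is not transcript length, and its part in the differences was not tested. The shorter members stood at a median of 0.14 on treated 2 and -0.37 on treated 1, and the longer ones at -0.25 and -0.46.

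**Figure D5:**
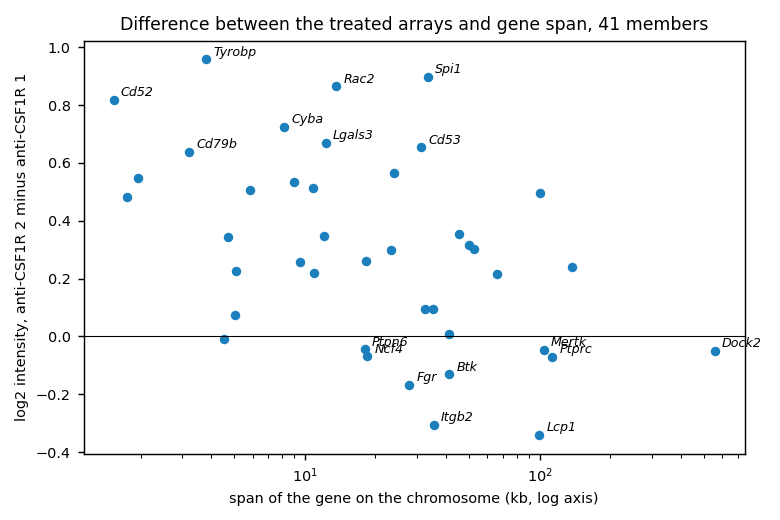
Each point is 1 of 41 members, with the span of the gene in kb on a log axis and the log2 intensity of treated 2 minus that of treated 1 on the vertical axis. Short genes such as Tyrobp (0.96) and Cd52 (0.82) stand high, and the longer members lie on both sides of 0, with 13 of 21 above it, from Lcp1 (-0.34) to Spi1 (0.90).

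Markers of the cell types that the liver can hold were read beside the members, as lists whose part in the members' differences was not tested. The 12 Kupffer cell markers had 3 under and 1 above every control against 32.4% and 8.43% of genes at their levels, and a median of -0.14; their mean level was 7.95 to 8.12 in controls, 7.73 on treated 1 and 8.10 on treated 2, the same order of the treated arrays as for the members. They include Csf1r (-0.56 ± 0.12), the scavenger receptor Cd163 (-0.80 ± 0.16) and Marco (1.34 ± 0.17), which lay above every control. Monocyte markers had 1 of 8 under and 1 above, against 17.5% and 29.7% of genes at their levels, a median of 0.04 and mean levels of 4.73 to 5.14 in controls and 4.84 to 5.07 in treated, with the chemokine receptor Cx3cr1 at -0.57 ± 0.14. Differences were below 0 for 4 of the 8 and above 0 for 4, up to 0.39. The mean levels lean on 1 gene, Nr4a1, which read 8.21, 7.06 and 5.75 in controls and 7.88 and 5.01 in treated. Neutrophil markers had 0 of 11 under and 7 above, against 5.54% and 39.2% of genes at their levels, a median of 0.23 and mean levels of 4.10 to 4.29 in controls and 4.38 to 4.39 in treated. They were led by the protease gene Elane (0.33 ± 0.10), S100a9 (0.31 ± 0.10) and Retnlg (0.54 ± 0.19). Red cell markers had 0 of 6 under and 4 above, against 15.4% and 24.2% of genes at their levels, a median of 0.28 and mean levels of 5.56 to 5.60 in controls and 5.82 to 5.86 in treated, with Hemgn at 0.32 ± 0.12 and Klf1 at 0.33 ± 0.14.

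The remaining lists had medians between -0.10 and 0.18. Their counts under and above every control stand beside the shares of genes under and above at their levels. T cell markers had 0 of 8 under and 1 above, namely Cd8b1 (0.31 ± 0.13), against 16.6% and 28.5% of genes. Their median was 0.08, and their mean level 4.60 to 4.78 in controls and 4.65 to 4.78 in treated. NK cell markers had 1 of 10 under and 2 above, against 4.56% and 43.8% of genes, with the transcription factor Eomes at 0.32 ± 0.10. Their median was 0.07, and their mean level 3.85 to 3.98 in controls and 3.998 to 4.071 in treated. B cell markers had 0 of 7 under and 1 above, which was Pax5 at 0.39 ± 0.12, against 9.02% and 34.1% of genes. Their median was 0.07, and their mean level 4.46 to 4.62 in controls and 4.61 on both treated arrays. Dendritic cell markers had 1 of 7 under and 3 above, against 13.1% and 30% of genes. Their median was 0.18, and their mean level 4.58 to 4.66 in controls and 4.68 to 4.71 in treated. Platelet markers had 0 of 5 apart in either direction (median 0.08), against 22.8% of genes under and 20.5% above. Hepatocyte markers had 2 of 8 under and 2 above (median -0.0023), against 16.3% and 19.3% of genes. Sinusoidal endothelial markers had 1 of 9 under and 2 above (median -0.10), against 30.6% and 9.21%. Stellate cell markers had 0 of 9 under and 2 above (median 0.13), against 31.9% and 9.19%. Bile duct markers had 1 of 5 under and 0 above (median -0.01), against 21.3% and 22.1%.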

How the data were processed

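Liver RNA was prepared with Trizol, and amplified cDNA (NuGEN Pico SL) carried a biotin label, per the labels' protocols. The deposited values are linear intensities of 35556 probe sets, 1 column per array. They came from Affymetrix Expression Console 1.1, per the submitters' processing notes. How probe sets were summarised, corrected for background and normalized is not given in the sources used here; such steps can draw arrays together or leave shifts with level.

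Intensities were used on the log2 scale without an added constant, filter or new normalization. Samples were grouped by their labels. Probe sets were named through GEO's platform annotation, with symbols checked against RefSeq (GRCm38.p6): 21218 had 1 symbol, 1881 several, and 12457 were unlisted; 33 symbols had no RefSeq entry and kept the annotation's name. Each gene was read from its probe set with the highest mean over 5 arrays. All probe sets were fitted with limma 3.58.1 in R 4.3.3 (two-sided, 3 residual and 3.03 prior degrees of freedom, Benjamini-Hochberg over all 35556), which was tested on simulated data. With 2 against 3 arrays the smallest exact permutation p is 0.1. So few arrays limit the precision, with a median SE of 0.138.

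Values on all 5 arrays are given for Spi1 and the 2 members of smallest p in each role group, and at most 3 genes, those of smallest p, are named from each pathway or marker list, besides Csf1r and Nr4a1. Nr4a1 was added for its wide spread, once values were known. Other member details, such as the treated values of Tyrobp, were picked once values were known. The members and lists were chosen with earlier results of these data known. Alternatives were other normalizations, filters, an added 16, probe set and variance choices, a replicate block, array weights and leaving out each array. Figures used matplotlib 3.10.9 in Python 3.11.15.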

Additional observations from a re-analysis of the deposited data

How the results depend on the processing

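No member passed an adjusted p of 0.05 in limma under any alternative run. Fitted on 1 probe set per gene, limma called 14 genes, 0 of them members, in place of 0. The count of members with both treated arrays under every control was 12 to 13 with other normalizations, filters, an added 16 or the mean over probe sets. For all of these but the mean over probe sets, the share of all genes ran from 14.8% (quantile normalization) to 32.6%. The 32.6% came without probe sets under the median level, where 12 of 37 members lay under. When 1 array was left out the count was 13 to 32, against 22.5% to 31.2% of genes. The count above every control, 1 (against 25.1% of genes), became 2 with quantile normalization or median centring. It was 0 without probe sets under the median level, where Cd2 was left out. When 1 array was left out it ran from 1 to 9, and the 9 without treated 1 stand beside 40.5% of genes. The members' median difference lay between -0.25 (replicate block) and -0.13 under the other settings. It lay between -0.381 and -0.0281 when 1 array was left out.

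Replicate numbers occur in both groups, but nothing says that they pair samples. Deviations from the group means correlated at 0.05 for the pair numbered 1 and -0.01 for the pair numbered 2. They correlated at -0.05 for control 1 with treated 2 and 0.01 for control 2 with treated 1. With 2 treated arrays each control's values are opposite by construction, so they cannot decide whether samples are paired. Only control 3 carries the number 3, so with the replicate number as a block (replicate block) the differences equal those without control 3. The median was -0.25, 0 members passed, and Cyba (-0.0170) and Cd52 (-0.0590) changed sign in both settings. Tyrobp was at 0.0122 with cyclic loess, Coro1a at 0.0770, 0.0245 and 0.0282 with quantile normalization, median centring and cyclic loess, Ptpn6 at 0.0193 and 0.0272 with quantile normalization and cyclic loess, and Cd3e at 0.0379 and 0.0270 with quantile normalization and median centring. The cause of these changes with normalization was not tested. Of 41 members, 15 changed sign when 1 array was left out. Their ranges were -0.32 to 0.0023 for Aif1, -0.0866 to 0.26 for Lyz2, -0.50 to 0.17 for Lgals3, -0.27 to 0.46 for Cyba, -0.55 to 0.41 for Tyrobp, -0.41 to 0.10 for Trem2, -0.72 to 0.18 for Spi1, -0.37 to 0.45 for Cd52, -0.56 to 0.0030 for Cd48, -0.0727 to 0.0404 for Coro1a, -0.64 to 0.22 for Rac2, -0.39 to 0.14 for Was, -0.12 to 0.10 for Cd3e, -0.37 to 0.14 for Cd3g and -0.26 to 0.38 for Cd79b. No detection call was used here, so how far dim members such as Btk and Cd2 stood above background is not known.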
